A study of Mus musculus with 2 samples.

Results

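The genes described here are 39 listed identity genes of macrophages and monocytes, read on arrays of small intestinal cells that the labels call ILCreg, regulatory innate lymphoid cells. A member was taken as measured where a feature of the array carried exactly 1 gene symbol and that symbol was the listed gene, and 34 of the 39 were, among 28281 named genes in all. The rule names the genes and uses no measured value, though the members were chosen with earlier results of these data known. Csf1r, Mpeg1 and Ms4a7 are not analysed here, and Ctsd and Spi1 were not counted because the feature that carries each holds a second symbol. The members fall into 4 groups, with 9 measured lineage genes of 12 listed, 12 scavenger and lysosomal genes of 13, 7 Fc receptor genes of 7 and 6 tissue-resident genes of 7.

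Both arrays belong to a single group. The mice were 8 weeks old, of the C57BL/6 strain, and carried an IL-10-GFP knockin, in which the locus of interleukin 10 also reports through green fluorescent protein. They were kept under specific pathogen free conditions, and no treatment other than anaesthesia is named. Cells of the small intestine were sorted, with a stated purity above 95% by flow cytometry. The labels do not say whether replicates 1 and 2 came from separate mice, pools or sorts, and differences between them could therefore be purely technical. No control population is analysed here.

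Macrophages are tissue phagocytes that engulf microbes, dying cells and debris and break them down in lysosomes. Those of the intestinal wall depend on the CSF1 receptor, are largely renewed by blood monocytes, and are known in the gut as a source of interleukin 10. A part of the gut's macrophages maintains itself locally, and TIM-4, encoded by Timd4, is one of the markers used for such resident cells. Innate lymphoid cells are lymphocytes without antigen receptors, and macrophage genes are not their defining markers.

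Values are log2 signals, and the log base was read from their range because it is not stated. Array 1 is that of replicate 1 and array 2 that of replicate 2. To count as above the threshold, a gene had to exceed, on both arrays, the 95th percentile of 1678 olfactory, vomeronasal and taste receptor genes and pseudogenes, which are not expected in these cells. That percentile was 6.74 on array 1 and 6.19 on array 2. A signal under it could not be told from such background, which is not proof of absence. Probes differ in affinity, so a higher signal of one gene than of another is not read as more transcript. Means are given ± SD over the 2 arrays, and so small a number limits the precision of each. The ILCreg label was looked at through 7 genes, of which 6 were measured and 6 were above the threshold, among them Ptprc (12.28 and 12.14), Il10 (10.59 and 11.05), Id2 (12.23 and 11.93) and Il7r (8.52 and 9.32).

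Of the 34 measured members, 26 were above the threshold on both arrays, 1 on a single array and 7 on neither. Among all named genes 31.7% met this rule, and among protein-coding genes outside the reference 38.9% did. These shares are the background for each count of passing genes in the lists below. The median signal of the members was 8.90, beside 5.43 for all named genes and 6.06 for those protein-coding genes. The groups were unequal. All 7 measured Fc receptor genes were above the threshold, as were 8 of 9 lineage genes and 9 of 12 scavenger and lysosomal genes, but only 2 of 6 tissue-resident genes, and the difference between these shares was not tested. In bulk RNA, fewer cells of a type and less RNA per cell cannot be told apart.

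**Figure D1:**
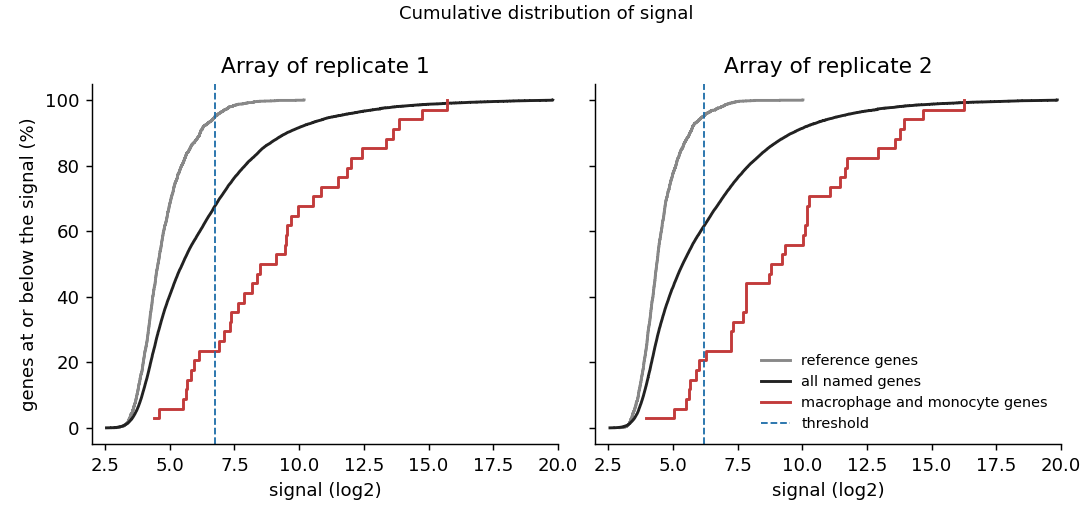
Percentage of genes at or below each log2 signal on the array of replicate 1 (left) and replicate 2 (right), for 1678 reference genes (grey), 28281 named genes (black) and 34 measured macrophage and monocyte genes (red). The dashed line is the threshold of that array, 6.74 and 6.19, and the red curve lies to the right of both others over most of the range.

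Lysozyme is the enzyme macrophages use to cut bacterial cell walls, and mice have it in 2 closely related genes. Lyz2 is the copy of myeloid cells, while Lyz1 is best known from Paneth cells, the antimicrobial cells of the intestinal crypt. Lyz2 gave 14.76 on array 1 and 14.66 on array 2 (14.71 ± 0.07). Lyz1 gave 13.37 and 13.77 (13.57 ± 0.28). Both lay more than 6 on the log2 scale above the threshold of each array, with margins of 8.02 and 8.47 for Lyz2 and of 6.62 and 7.58 for Lyz1. Because the copies are so alike, their probes may share signal. Markers of Paneth cells were present on the same arrays, with 8 of 9 measured above the threshold, a median of 9.78 on array 1 and 9.96 on array 2, and the defensin genes Defa21 (11.88 and 10.86) and Defa22 (11.92 and 10.81) among them and Pla2g2a (6.32 and 5.88) below. Their part in the Lyz1 signal was not tested.

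The likeness of the lysozyme copies extends into their promoters, which are shown with those of 2 further members that hold the same short motif. The sequences are the 250 bases before the gene start in RefSeq (GRCm38.p6), read 5′ to 3′ along the gene's strand, at chr10:117292869-117293118 (minus strand) for Lyz1, chr10:117282273-117282522 (minus) for Lyz2, chr1:171018676-171018925 (plus) for Fcgr4 and chr7:101857191-101857440 (minus) for Folr2. Capitals mark AGGAAGT, the core of the element bound by PU.1, the protein of Spi1, or its reverse complement.
Lyz1: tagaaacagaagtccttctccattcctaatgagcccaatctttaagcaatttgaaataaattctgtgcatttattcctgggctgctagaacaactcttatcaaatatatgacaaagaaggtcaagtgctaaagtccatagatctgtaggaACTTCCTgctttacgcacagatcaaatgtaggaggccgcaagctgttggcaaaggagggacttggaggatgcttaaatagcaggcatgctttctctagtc
Lyz2: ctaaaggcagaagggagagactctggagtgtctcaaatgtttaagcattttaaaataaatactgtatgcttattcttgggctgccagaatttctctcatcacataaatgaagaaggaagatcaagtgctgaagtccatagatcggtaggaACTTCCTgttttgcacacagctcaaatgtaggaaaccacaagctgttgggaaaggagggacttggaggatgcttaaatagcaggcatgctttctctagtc
Fcgr4: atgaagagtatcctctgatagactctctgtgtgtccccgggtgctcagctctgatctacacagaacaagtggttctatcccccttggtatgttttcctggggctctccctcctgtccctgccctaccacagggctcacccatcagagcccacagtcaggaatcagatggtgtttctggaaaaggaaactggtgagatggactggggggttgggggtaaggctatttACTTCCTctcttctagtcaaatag
Folr2: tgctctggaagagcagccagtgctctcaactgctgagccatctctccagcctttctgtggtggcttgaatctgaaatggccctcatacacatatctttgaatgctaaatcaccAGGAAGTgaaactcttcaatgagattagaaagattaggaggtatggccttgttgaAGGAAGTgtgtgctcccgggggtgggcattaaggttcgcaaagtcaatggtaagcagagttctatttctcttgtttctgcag

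Aligned end to end, the Lyz1 and Lyz2 windows were identical in 200 of 252 columns (79.4%), and the last 50 bases before the start were the same in both. The motif lies 100 to 94 bases before the start in each of them, and 24 to 18 bases before it in Fcgr4. Folr2 holds it in 2 places in the window shown. Of the 34 measured members 27 had a promoter in the RefSeq table, and AGGAAGT on either strand was found in 7 of them (25.9%), beside 8.8% of 27025 genes with a window of the same length. The 7 were Lyz1, Lyz2, Mrc1, Fcgr1, Fcgr4, Folr2 and Ly6c2, of which Folr2 alone was not above the threshold on both arrays. Lyz1 and Lyz2 are such close copies that their matches are not independent, and a gene counted if any of its windows held the motif. The difference between these shares was not tested. A looser pattern for C/EBP factors, TTNCNNAA on either strand, was in 12 of the 27 (44.4%) and in 40.3% of all genes. No match of one motif overlapped a match of the other in these members, a gene with several windows counted once, and a match is only a run of letters, not a binding site.

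The remaining lineage genes are those by which macrophages and monocytes are most often recognised. Adgre1, which encodes the adhesion receptor most used as a surface marker of mouse macrophages, gave 9.46 and 10.26 on arrays 1 and 2 (9.86 ± 0.57). Cd68, a glycoprotein of their lysosomal membrane, gave 9.53 and 10.19 (9.86 ± 0.47). Both exceeded each array's threshold by at least 2.71, and both were higher on array 2. Sirpa, the inhibitory receptor through which phagocytes read CD47 as a signal not to engulf, gave 9.97 and 10.13 (10.05 ± 0.11). Aif1, encoding the calcium-binding protein IBA1, gave 8.50 and 7.81 (8.16 ± 0.49), higher on array 1.

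Ly6c2 encodes the Ly6C antigen of inflammatory monocytes, which some lymphocytes and plasma cells also carry. It gave 13.87 and 13.60 (13.74 ± 0.19). Its neighbour and near copy Ly6c1 gave 10.58 and 10.31, so both were lower on array 2 by a like amount, and probes may be shared between them as well. The 2 CCAAT/enhancer binding proteins among the members were on opposite sides of the threshold. Cebpa, which directs early myeloid differentiation, was at 9.51 and 9.21 (9.36 ± 0.21). Cebpb, which acts in monocyte survival and in the inflammatory response of macrophages, was at 5.80 and 5.64 (5.72 ± 0.12) and passed on neither array. It was the only measured lineage gene that did not pass.

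**Figure D2:**
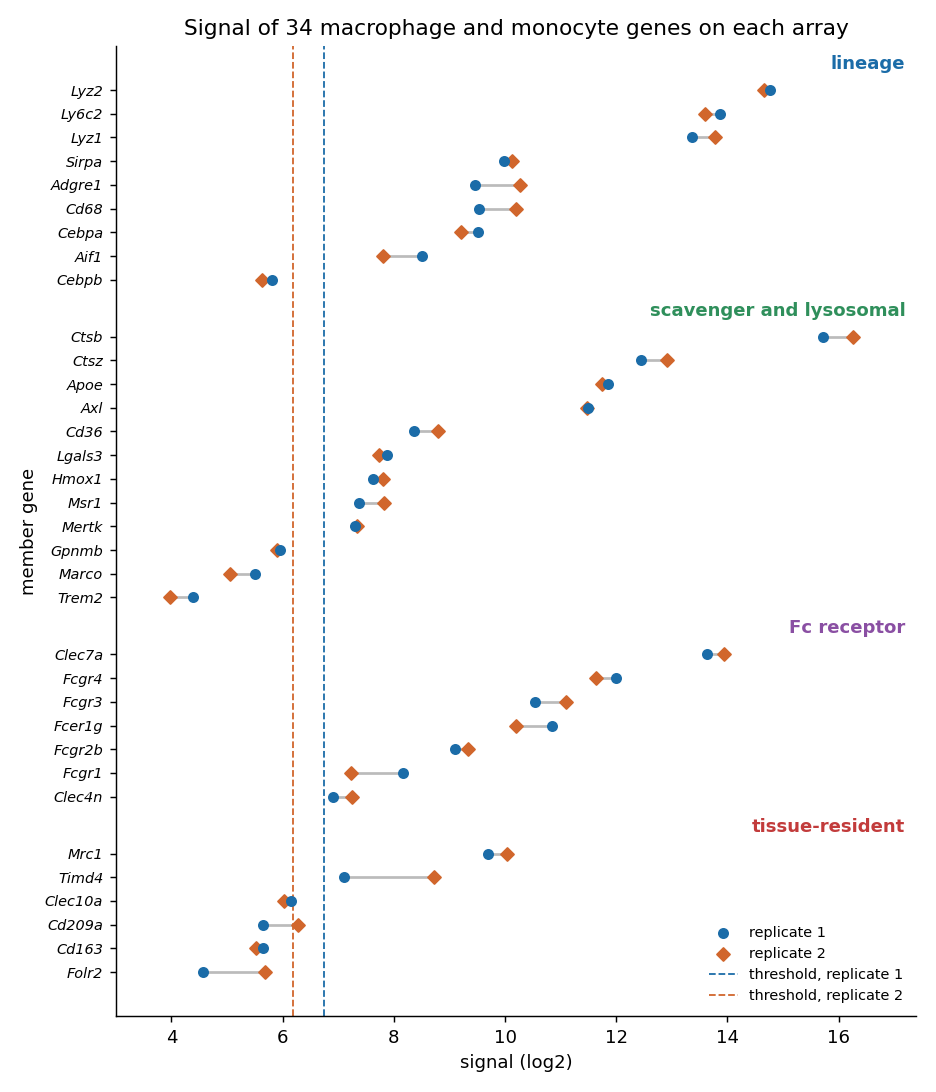
Log2 signal of the 34 measured members on the array of replicate 1 (blue circles) and of replicate 2 (orange diamonds), joined by a grey line and grouped by role. Dashed lines mark the threshold of each array, 6.74 and 6.19; the Fc receptor genes all lie to the right of both lines, and 4 of the 6 tissue-resident genes do not.

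Fc receptors bind the constant part of antibodies and trigger uptake of what those antibodies coat. Most of them signal through a shared chain, FcR gamma, encoded by Fcer1g. Fcer1g gave 10.84 on array 1 and 10.20 on array 2 (10.52 ± 0.46). Fcgr3, the low affinity activating receptor of macrophages and natural killer cells, gave 10.55 and 11.09 (10.82 ± 0.39). Fcgr4, an activating receptor found mainly on myeloid cells, gave 11.99 and 11.64 (11.81 ± 0.25). The Fcgr genes are related in sequence, and signal may be shared among their probes. Fcer1g, Fcgr3 and Fcgr4 exceeded every one of the 1678 reference genes on both arrays. Fcgr2b, the inhibitory receptor of the family and also a receptor of B cells, gave 9.11 and 9.33 (9.22 ± 0.16). Fcgr1 encodes the high affinity receptor CD64, a marker used to separate gut macrophages from dendritic cells. It gave 8.16 and 7.24 (7.70 ± 0.65), with margins of 1.42 and 1.05 above the thresholds, and was lower on array 2.

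The lectins dectin-1 and dectin-2 were grouped with the Fc receptors because they signal through the same kind of tyrosine motif. Clec7a, encoding dectin-1, a receptor for fungal glucans, gave 13.64 and 13.93 (13.78 ± 0.21). Clec4n, encoding dectin-2, which pairs with the FcR gamma chain, gave 6.91 and 7.25 (7.08 ± 0.24). The dectin-2 gene passed by only 0.17 on array 1, and it was the sole gene of this group that did not exceed the stricter 99th percentile of the reference on both arrays. That percentile was 7.91 on array 1, where the gene fell short, and 7.21 on array 2, where it did not. Fcgr1, with 7.24 on array 2, exceeded it there only narrowly.

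Markers of other cells that use these receptors were read on the same arrays, and their part in the Fc receptor signals was not tested. Of 9 natural killer cell and ILC1 markers, 2 were above the threshold, the granzyme genes Gzmb (13.40 and 13.37) and Gzma (11.66 and 11.44). The receptor gene Ncr1 (4.63 and 4.71) and the transcription factor gene Eomes (5.54 and 4.82) were not. The list's median was 5.57 on array 1 and 5.46 on array 2. Of 9 measured B and plasma cell markers 5 passed, with medians of 6.76 and 7.13. They included the plasma cell gene Jchain (17.47 and 18.11) and the B cell genes Cd79a (6.76 and 7.41) and Cd79b (7.10 and 7.13). The B cell genes Pax5 (4.86 on each array) and Fcer2a (4.58 and 4.73) did not pass. The plasma cell gene Tnfrsf17 (6.38 and 5.54) did not pass either. Of 8 measured mast cell markers 1 passed, Kit (7.53 and 7.44), and Fcer1a, the mast cell chain that pairs with Fcer1g, stood at 3.92 and 4.07. Of 13 granulocyte markers 3 passed, Prg2 (8.18 and 8.95) and the neutrophil genes S100a9 (7.90 and 6.70) and Csf3r (6.94 and 7.01). The other 10 did not, and Epx stood at 3.79 and 3.56. Ly6g, which defines neutrophils, stood at 5.07 and 4.35. Medians were 4.91 and 4.85 for mast cells and 5.23 and 4.73 for granulocytes.

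Among scavenger and lysosomal genes, the proteases and lipid carriers had signals far above background. Ctsb, encoding the lysosomal protease cathepsin B, gave 15.72 and 16.26 (15.99 ± 0.38). Ctsz, encoding the related cathepsin Z, gave 12.44 and 12.91 (12.68 ± 0.33). Apoe, the lipoprotein that macrophages release when they export cholesterol, gave 11.85 and 11.74 (11.80 ± 0.08). Each of these 3 exceeded all 1678 reference genes on both arrays. None of the 34 members was at the highest value of an array or differed by the amount by which those highest values differ.

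Axl and Mertk are TAM receptors, kinases with which phagocytes recognise dying cells through the bridging proteins GAS6 and protein S. Axl gave 11.49 and 11.47 (11.48 ± 0.01). Mertk gave 7.31 and 7.34 (7.33 ± 0.02), which passed the threshold by 0.57 on array 1 and 1.15 on array 2. The ligand genes also passed, Gas6 with 9.11 and 8.91 and Pros1 with 7.82 and 9.02, whereas the third receptor of the family, Tyro3, did not (5.16 and 5.04). Fibroblasts also express Axl and Apoe. Of 8 measured stromal markers 7 were above the threshold, with medians of 12.30 on array 1 and 13.98 on array 2. Dpt (19.80 and 19.86) was at the highest value of each array and Thy1 (5.56 and 5.72) did not pass, and their part in these signals was not tested.

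The scavenger receptors proper fell on both sides of the threshold. Cd36, which binds oxidised lipids and long-chain fatty acids, gave 8.37 and 8.79 (8.58 ± 0.30). Msr1, the class A scavenger receptor for modified lipoproteins and bacteria, gave 7.38 and 7.82 (7.60 ± 0.31). Both passed, but Marco, a related receptor of certain resident macrophages, gave 5.50 and 5.06 (5.28 ± 0.31) and did not. Endothelial cells and enterocytes also express Cd36. Of 10 endothelial markers 4 passed (40%), near the 38.9% of protein-coding genes outside the reference. The list's medians were 6.15 and 6.07, with Eng at 8.04 and 8.71 and Flt4 at 5.15 and 5.20. Of 10 epithelial markers 9 passed (medians 11.85 and 11.86), with Krt8 at 15.42 and 15.76 and Apoa4, which did not pass, at 5.72 and 5.04. The part of either cell type was not tested.

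Lgals3, the sugar-binding protein galectin-3 of activated macrophages and of epithelium, gave 7.88 and 7.73 (7.81 ± 0.11). Hmox1, the inducible enzyme that degrades heme, gave 7.63 and 7.81 (7.72 ± 0.13). They passed the threshold, but like Msr1 and Mertk they missed the 99th percentile of the reference on array 1, though not on array 2. The stricter rule was met by 5 of the 12 genes of this group. It was met by 5588 of 28281 named genes and by 3733 of 16402 protein-coding genes outside the reference. Trem2 and Gpnmb, both genes of lipid-laden macrophages, did not pass on either array. Trem2, a lipid-sensing receptor, gave 4.38 and 3.98 (4.18 ± 0.28), and 41.9% of the reference genes on array 1 and 24.7% on array 2 had a lower signal. Gpnmb gave 5.95 and 5.90 (5.92 ± 0.03), with margins of -0.80 and -0.29 to the thresholds.

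Of the 6 tissue-resident genes 2 passed on both arrays (33.3%). That share lies between the 31.7% of all named genes and the 38.9% of protein-coding genes outside the reference. Mrc1, encoding the mannose receptor CD206, passed clearly with 9.70 and 10.04 (9.87 ± 0.24). Timd4, encoding the phosphatidylserine receptor TIM-4 of long-lived resident macrophages, gave 7.10 and 8.71 (7.91 ± 1.14). It passed by 0.36 on array 1, where it was under the 99th percentile of the reference, and by 2.52 on array 2, and its SD was the widest of all 34 members. Cd163, the receptor for hemoglobin bound to haptoglobin, gave 5.64 and 5.52 (5.58 ± 0.09). Folr2, encoding folate receptor beta, gave 4.57 and 5.68 (5.13 ± 0.78). Neither passed on any array, although Cd163, Folr2 and Mrc1 are often used together as markers of resident macrophages.

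Clec10a and Cd209a encode lectins shared by macrophages and dendritic cells. Clec10a gave 6.14 and 6.03 (6.08 ± 0.08) with margins of -0.60 on array 1 and -0.16 on array 2. Cd209a gave 5.65 and 6.27 (5.96 ± 0.44) and passed on array 2 alone, by 0.08. Of 10 measured dendritic cell markers, Cd209a among them, 4 passed on both arrays (40%), near the 38.9% of protein-coding genes outside the reference. The 4 were the MHC class II gene H2-Aa (14.01 and 14.28), Ccr7 (9.33 and 8.90), Clec9a (7.79 and 7.90) and Itgae (7.06 and 7.42). Zbtb46 (5.40 and 5.41), Flt3 (5.14 ± 0.19) and Xcr1 (4.33 and 4.44) did not pass. The list's medians were 6.18 and 6.39, and the part of dendritic cells in the lectin signals was not tested.

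Genes that work together with the members were read in the same way. A list of 97 partner genes, chosen with earlier results of these data known, held 83 that were measured. Of these, 60 were above the threshold on both arrays (72.3%), with a median signal of 8.36. The list includes ligands of members and genes of lysosomes, which most cells hold, so its share is not a share of macrophage markers. The share was 31.7% for all named genes and 38.9% for protein-coding genes outside the reference, which also stand beside each partner role below. The ligands of the CSF1 receptor passed, Csf1 with 10.57 and 10.52 and Il34 with 6.93 and 6.48. Complement and opsonin genes passed in 4 of 6 cases, including all chains of C1q, which macrophages secrete, with C1qa at 10.52 and 11.02, C1qb at 12.20 and 12.55 and C1qc at 9.48 and 9.21. The opsonin receptor gene Vsig4, a marker of resident macrophages in other organs, stood at 4.51 and 3.83. Tyrobp, the adaptor DAP12 that carries signals of TREM2 and related receptors, gave 12.30 and 11.91, and the kinase gene Syk, on which Fc receptors and dectins depend, 8.27 and 8.29. Of 8 adaptor and kinase genes 5 passed, while the adaptor gene Card9, downstream of the dectins, was at 4.02 and 3.84.

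Monocyte entry and surface genes passed in 9 of 11 cases, while Cd14 is not analysed here. They included the chemokine receptor genes Ccr2 (8.34 and 8.38), which brings monocytes into tissue, and Cx3cr1 (9.64 and 9.44), which gut macrophages carry, and the integrin gene Itgam (10.16 and 10.38). Nr4a1 (14.17 and 14.90), counted with them, encodes an orphan nuclear receptor needed by patrolling monocytes and is not itself an entry or surface gene. The monocyte gene F13a1 (4.79 and 4.65) and Tlr4 (5.76 and 5.48) did not pass. Of 12 myeloid transcription factors 8 passed, among them Maf (11.53 and 11.97), and Cebpe, a factor of granulocytes, stood at 3.67 and 3.51. Of 16 ligands and receptor partners 10 passed, with Cd47, the ligand of SIRPA, at 13.26 and 13.58, the inhibitory receptor gene Lilrb4a at 14.80 and 15.45 and the scavenger receptor gene Stab2 at 4.55 and 4.36.

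Lysosomal and lipid handling genes passed in 17 of 20 cases, with the sphingolipid activator gene Psap at 17.21 and 17.33 and the lipid binding gene Fabp5 at 5.21 and 4.88. Of 6 iron and heme genes 4 passed, with the ferritin light chain gene Ftl1 at 12.59 and 12.41, and Slc40a1, encoding the iron exporter ferroportin, did not (5.83 and 6.12). Most cells hold lysosomes, so these genes do not mark macrophages. T cell markers passed in 4 of 6 cases (medians 8.24 and 8.50), with Cd3e at 9.68 and 9.90 and Cd247 at 5.32 and 4.94. Which cells in the sort supplied the transcripts of the members and partners cannot be read from bulk arrays.

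**Figure D3:**
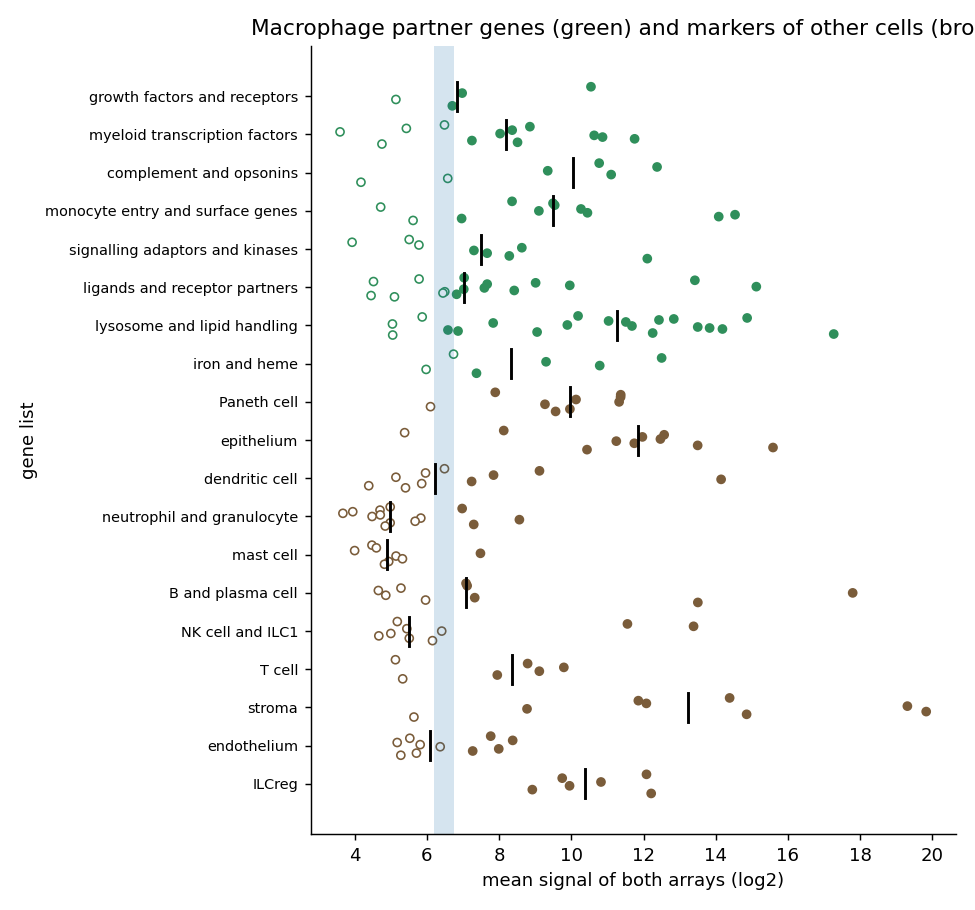
Mean log2 signal of each measured gene in the lists of macrophage partner genes (green) and of markers of other cells and of the ILCreg label (brown). Filled points are above the threshold on both arrays, black bars are list medians, and the blue band spans the thresholds of the arrays, 6.19 to 6.74; mast cell and granulocyte lists lie mostly to the left of it.

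The spread of the members between the arrays was somewhat wider than that of other genes, with a median SD of 0.25 beside 0.19 for named genes above the threshold and 0.15 for all named genes; this was not tested. Differences are array 2 minus array 1, less the median difference of all named genes, which was -0.05. Their median over the 34 members was 0.14, and 20 were higher on array 2. Of the 26 above the threshold 17 were higher on array 2, beside 55.3% of all named genes above it. For protein-coding genes outside the reference it was 4063 of 6380 above the threshold, so the members' count is near that of coding genes. The median over the 26 was 0.25, beside 0.13 for those coding genes and 0.05 for all named genes above the threshold. Timd4 alone of these 26 differed by more than 2-fold, beside 4.16% of all named genes above the threshold, with a centred difference of 1.66. Each such difference sets 1 array against 1 and has no replicate check, so no p-value is given.

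The other member past that limit was Folr2, with a centred difference of 1.15, but its signal was at background on both arrays. Tissue-resident genes had a median centred difference of 0.53, Fc receptor genes 0.27, scavenger and lysosomal genes 0.05 and lineage genes -0.05. Over the members above the threshold alone, the medians were 1.03 for the 2 tissue-resident genes, 0.27 for Fc receptor genes, 0.23 for scavenger and lysosomal genes and 0.07 for lineage genes, so the sign for the lineage group turned on whether Cebpb, at background, was counted. Within the groups the members went both ways. Adgre1 (0.86), Cd68 (0.71) and Fcgr3 (0.59) were higher on array 2, and Fcgr1 (-0.88), Aif1 (-0.65) and Fcer1g (-0.60) were higher on array 1. Among the marker lists, 8 of 8 measured stromal genes were higher on array 2, with a median of 0.32, but the differences of Dpt and Dcn equalled the gap between the arrays' highest values and so carry no direction of their own. The collagen genes Col1a1 (1.74), Col1a2 (1.89) and Col3a1 (2.08) differed by more than any member. Paneth cell genes went both ways, with 4 higher on array 2, among them Itln1 (0.79), and 5 lower, among them Defa22 (-1.06). The part of these cells in the members' differences was not tested.

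**Figure D4:**
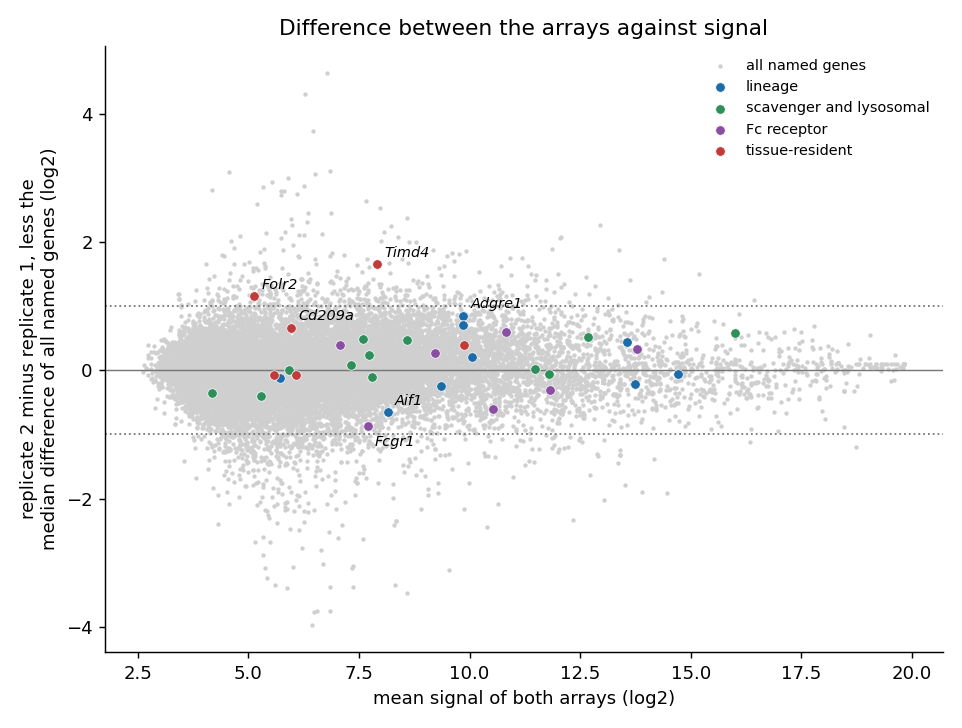
Centred difference between the arrays (replicate 2 minus replicate 1, log2) against the mean log2 signal, for all named genes (grey) and the 34 members (coloured by group). Dotted lines mark a 2-fold difference; Timd4 (1.66) and Folr2 (1.15) lie above the upper line and no member lies below the lower one.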

How the data were processed

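The deposited table holds 1 log2 signal per feature and array, 61344 features in all, and was used as the authors deposited it. Per the submitters' processing notes MAS5 was used, with no version or role. How features were summarized and scaled is not given in the sources used here, and neither is the log base, which was taken from the range of the values (2.10 to 19.86). Per the labels' protocols, RNA was extracted with TRIZOL, treated with DNase, and amplified and labelled with a whole-transcript Pico kit.

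Of the features, 28573 carried exactly 1 distinct symbol in the platform annotation, 2014 several and 30757 none. Only the first were used. Members were matched by the platform's symbol. For the other genes, symbols were updated through Entrez identifiers in RefSeq's table for GRCm38.p6, where 21104 of 21331 were found, and 783 features changed symbol. Where features shared a gene, the one with the highest mean was used; no member had more than 1. The rule for named genes takes all members, the highest and lowest gene of each partner role and marker list, the ligands of members and a few set partners (C1qa, C1qb, C1qc, Tyrobp, Cx3cr1, Ccr2, Itgam, Cd14), of which 1 more is not reported here; other partner and marker genes in the text were chosen after their values were seen. The members, lists and thresholds were chosen with earlier results of these data known. With 1 group of 2 arrays no test between groups was possible.

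Thresholds, counts and centred differences were computed in Python 3.11.15 with pandas 2.3.3, and checked on simulated data. Promoters were aligned with Biopython 1.88 (match 1, mismatch -1, gap opening -3, extension -1). Protein sequences were not used here. Alternatives covered the reference, its percentile, several features per gene, each array alone, quantile normalization and centring.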

Additional observations from a re-analysis of the deposited data

Results flagged for a closer look

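A single result drew attention, as signal in a feature left out of the main counts. Features shared by an uncounted member and another symbol were flagged only if they were above the threshold on both arrays, and that of Ctsd was not flagged. The feature that carries the symbols Spi1 and Sfpi1 gave a mean signal of 7.35, with 7.23 on array 1 and 7.47 on array 2, above the threshold on both arrays, and above the 99th percentile of the reference on array 2 but not on array 1. Spi1 encodes PU.1, the factor that macrophage development depends on. The gene table lists Sfpi1 as an older name of Spi1, and this was looked up only after the data were seen.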

How the results depend on the processing

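The count of members above the threshold, 26 of 34, was 26 with the 90th percentile of the reference, with keratin-associated protein and Rhox genes as the reference, with the median over features and with updated symbols. It was 20 at the 99th percentile, where Msr1, Mertk, Timd4, Lgals3, Clec4n and Hmox1 no longer passed, each on array 1 alone. Over all 28281 named genes that rule left 5588 of the 8971 above the threshold. Without replicate 1 or replicate 2 it was 27 to 26, Cd209a being the gene gained. Keeping features that carry several names of 1 gene, chosen after the data were seen, gave 27. The partner count of 60 ranged from 45 to 65. The members' median signal was 8.89 after quantile normalization and moved by less than their median SD of 0.25 on either array alone. Their median difference stayed between 0.06 and 0.14. Timd4 and Folr2 stayed the only members over 2-fold different under quantile normalization, without centring and with centring on genes above the threshold. The planned comparison of lysozyme and Fc receptor proteins was not run. Signal close to background limits what can be said of Clec4n, Timd4, Cd209a and the partner gene Il34.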
